A study of Mus musculus with 3 samples.

Results

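The genes described here are 9 members of the TGF-beta family and its response: the ligand genes Tgfb1, Tgfb2, Tgfb3 and Inhba, the receptor genes Tgfbr1, Tgfbr2 and Tgfbr3, the inhibitor gene Smad7 and the target gene Tgfbi. They were taken by symbol, without use of their values, from the 55357 genes listed for each library, and all 9 were found. The cells came from tumours of 4T1, a mouse mammary carcinoma line, grown in female mice of 8 to 10 weeks and profiled by droplet single-cell sequencing of RNA 3′ ends. The tumour of the first library grew from 4T1-sgCPT1A cells, labelled as a CPT1A knockdown, and that of the second from 4T1-sgVC cells, labelled WT, which are the control. Tumour-bearing mice of both groups were kept for 8 days, and the whole digested tumour was loaded, with no sort described. Cpt1a encodes the carnitine palmitoyltransferase of fatty acid entry into mitochondria. The guide is named for the implanted line, so the immune and stromal cells measured here belong to the host.

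Each group had 1 library. The labels list another sgCPT1A sample, which was not used here, and whether the sgCPT1A counts include its reads is not known here. There were thus no replicates and no tests, cells were not treated as replicates, and the 95% intervals given reflect counting error alone. The level of a gene in a class is its number of unique molecular identifiers (UMIs, which count captured RNA molecules), summed over the cells of the class, scaled to 1000000 UMIs of that class (CPM). A gene is called higher or lower where its level in sgCPT1A differed from that in sgVC by 1.5-fold or more, with at least 20 UMIs over both libraries. Levels were compared within a gene only, never between genes.

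TGF-beta is made as a latent complex that is stored on cells or in matrix and has to be released. The released dimer brings together the serine-threonine kinase receptors encoded by Tgfbr2 and Tgfbr1, with help from the betaglycan coreceptor encoded by Tgfbr3, and these receptors phosphorylate SMAD2 and SMAD3, which enter the nucleus with SMAD4. Activin A, the dimer of the Inhba product, signals to the same SMADs through receptors of its own. In tumours the pathway is known for activating fibroblasts, for restraining T and natural killer (NK) cells and for acting on neutrophils and macrophages.

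Sequencing gave 35557125 UMIs over 7198 barcodes in sgCPT1A (median 2786 per barcode) and 155948212 UMIs over 9890 barcodes in sgVC (median 10809). After filtering, 6743 sgCPT1A and 9319 sgVC cells remained, and 15 barcodes occurred in both. Classes were called "-like" from marker genes of clusters that had been made without the 9 genes. The libraries differed in make-up: neutrophil-like cells were 76.0% of sgCPT1A cells and 19.3% of sgVC cells, and tumour-like cells were 0.119% of sgCPT1A cells (8 cells) and 47.1% of sgVC cells (4386 cells). In the 8 tumour-like cells of sgCPT1A the 3 Schwann cell markers together stood at 3268 CPM, which goes against the name. In sgVC tumour-like cells they stood at 0.752 CPM. The 8 tumour markers summed to 2767 CPM in sgCPT1A and 3900 CPM in sgVC tumour-like cells. Krt7, Krt19 and Epcam were at 0 in the 8 cells, and Epcam was also at 0 in sgVC tumour-like cells. Tumour-like levels are therefore given side by side with no ratio. Cpt1a had 1 UMI in those 8 cells (8.09 CPM, 95% interval 0.205 to 45.1), against 2098 UMIs in sgVC tumour-like cells (17.3 CPM, 16.6 to 18.1). Since only RNA ends were read, these values check neither label. A small cluster of Epcam-high epithelial cells (30 sgCPT1A and 13 sgVC cells) was kept apart.

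The members were compared where both libraries had 25 or more cells, which left 7 classes. Over these classes 13 pairs of a member and a class were higher in sgCPT1A and 8 were lower. The same thresholds call many other genes, so each count is set beside the share of all measured genes of that class. In neutrophil-like cells 2 of 7 measured members were higher and 1 was lower, where 17.5% and 35.9% of all genes were called higher and lower. In monocyte/macrophage-like cells 1 of 7 was higher and 1 lower, beside 15.4% and 25.5% of all genes. In dendritic-like cells 3 of 4 were higher and 0 lower, beside 16.5% and 19.2%. In T-like cells 2 of 6 were higher and 0 lower, beside 13.7% and 14%. In NK-like cells 2 of 3 were higher and 1 lower, beside 29.4% and 17.2%. In fibroblast-like cells all 9 members were measured, with 1 higher and 1 lower, beside 16% and 13.6%. In pericyte or smooth muscle-like cells 2 of 8 were higher and 4 lower, beside 24% and 16.2%. The members as a set thus showed no shared direction, and the description below goes gene by gene: Tgfb1 was higher across leukocytes, Inhba was higher in neutrophil-like and lower in fibroblast-like cells, and Tgfbr2 in fibroblast-like cells was close.

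**Figure D1:**
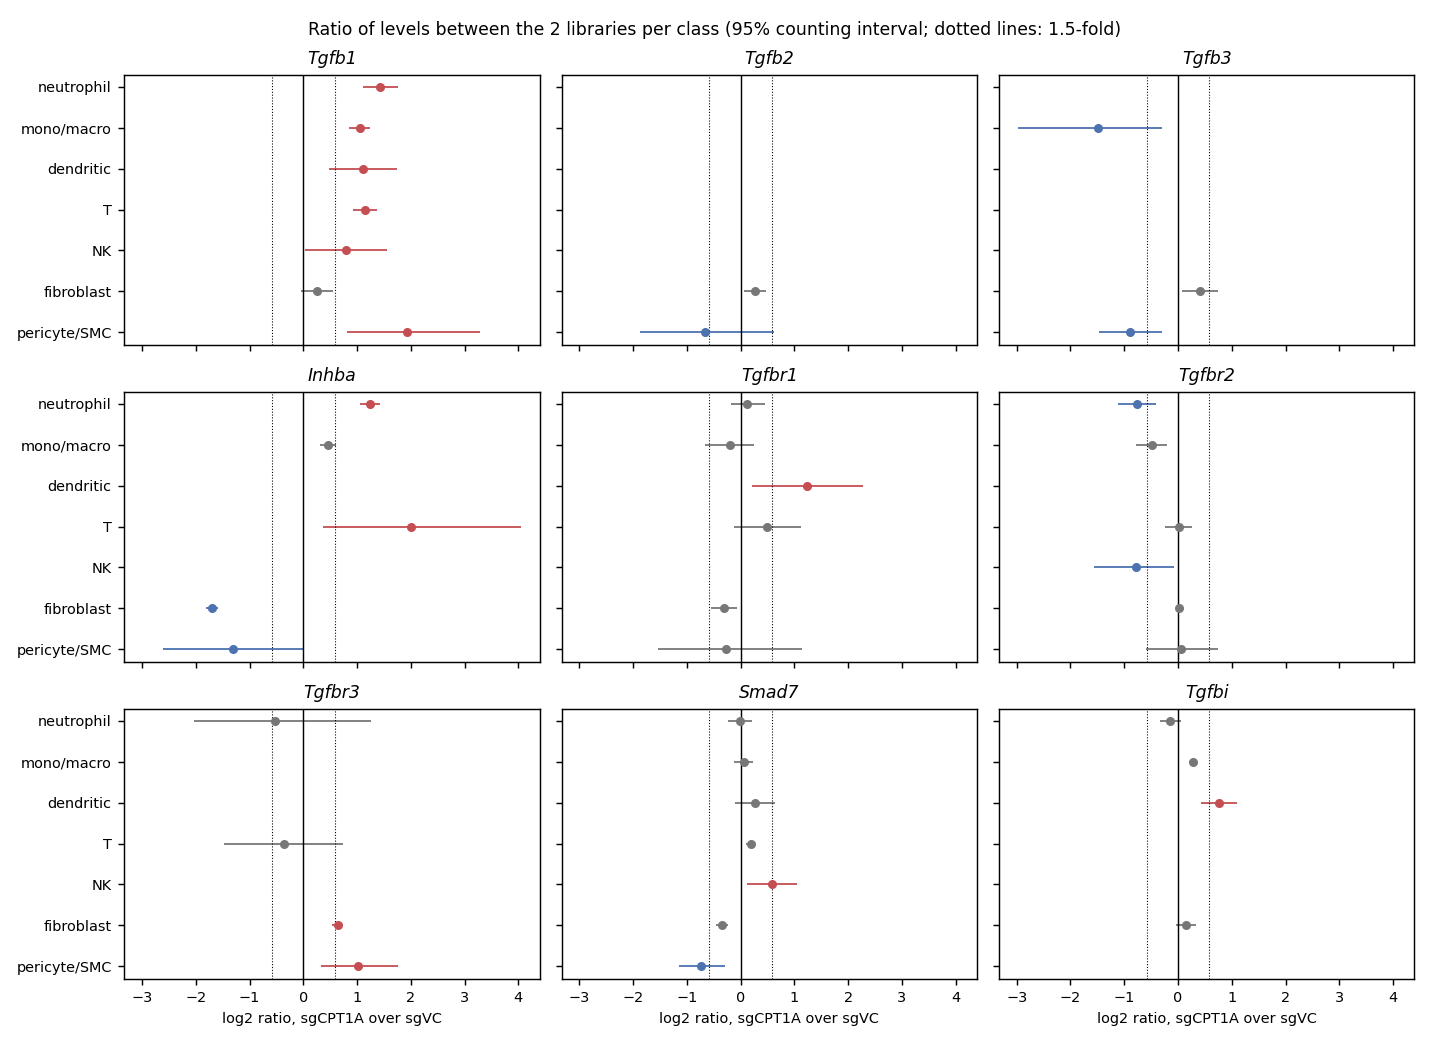
Each panel shows 1 gene and each point the log2 ratio of its level in sgCPT1A over that in sgVC within a class, with the 95% counting interval as a bar and 1.5-fold as dotted lines; red points were called higher, blue points lower and grey points neither, and a class with under 20 UMIs has no point. Tgfb1 is called higher in 6 of 7 classes, while Inhba lies to the right in neutrophil-like and T-like cells and to the left in fibroblast-like and pericyte or smooth muscle-like cells.

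Tgfb1 was called in the most classes and Inhba was called in opposite directions, so the 250 bases before their annotated starts are shown (RefSeq, GRCm38.p6, plus strand, 5′ to 3′). The Tgfb1 window is chr7:25686752-25687001 and the Inhba window is chr13:16011601-16011850. Capitals mark matches, on either strand, to the letters searched.
Tgfb1: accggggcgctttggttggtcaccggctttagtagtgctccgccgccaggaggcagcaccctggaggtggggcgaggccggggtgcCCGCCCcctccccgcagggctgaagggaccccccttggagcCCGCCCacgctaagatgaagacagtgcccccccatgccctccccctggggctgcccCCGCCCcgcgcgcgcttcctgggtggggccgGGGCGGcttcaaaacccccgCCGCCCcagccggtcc
Inhba: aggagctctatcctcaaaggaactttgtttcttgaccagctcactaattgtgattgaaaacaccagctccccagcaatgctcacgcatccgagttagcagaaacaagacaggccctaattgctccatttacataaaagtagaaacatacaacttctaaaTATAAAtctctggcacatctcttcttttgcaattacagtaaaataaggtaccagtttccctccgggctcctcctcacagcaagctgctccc
The search covered the TATA box TATAAA, the GC box GGGCGG, the AP-1 site TGANTCA, the paired SMAD box GTCTAGAC and the short SMAD element CAGAC, some of whose matches could overlap. The Tgfb1 window held 5 GC boxes and none of the other motifs, and the Inhba window held 1 TATA box and none of the others. Of 32851 windows of the same length before gene starts, 32.7% held the GC box, 12.4% the TATA box, 6.75% the AP-1 site, 0.167% the paired SMAD box and 42.2% the short SMAD element. Windows were found for 6 of the 9 members. The letters describe these windows and say nothing on what binds there.

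Tgfb1 (ENSMUSG00000002603, chromosome 7, 25687002 to 25705077, plus strand, GRCm38), the TGF-beta ligand gene best known from leukocytes, was higher in sgCPT1A in 6 of 7 classes. In T-like cells it stood at 153 CPM in sgCPT1A (95% interval 140.1 to 167; 511 UMIs) and at 69.2 CPM in sgVC (60.6 to 78.7; 232 UMIs), a log2 ratio of 1.15 (0.92 to 1.38). In monocyte/macrophage-like cells it stood at 143 CPM in sgCPT1A (309 UMIs) and 69.2 CPM in sgVC (684 UMIs), a log2 ratio of 1.05 (0.85 to 1.24). Both classes thus had close to the same level as each other in each library. In neutrophil-like cells the level was 84.0 CPM in sgCPT1A (1151 UMIs) and 31.2 CPM in sgVC (87 UMIs), a log2 ratio of 1.43 (1.11 to 1.76). In dendritic-like cells it was 62.3 CPM in sgCPT1A and 28.8 CPM in sgVC (45 and 44 UMIs), a log2 ratio of 1.11 (0.48 to 1.75). The dendritic-like difference was 0.41, below the threshold, when each cell took its class from its own markers. In NK-like cells, with 33 sgCPT1A and 83 sgVC cells, it was 133 CPM in sgCPT1A and 76.4 CPM in sgVC, a log2 ratio of 0.80 whose interval (0.03 to 1.55) nearly reaches 0.

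Among stromal classes the picture for Tgfb1 was split. The pericyte or smooth muscle-like class itself joins 2 clusters in unlike shares: cluster 14a, led by Rgs5 and Sparcl1, held 42 of 60 sgCPT1A and 12 of 30 sgVC cells, and cluster 14b, led by Acta2, held 18 of 60 and 18 of 30. All ratios of this class compare those mixtures. Fibroblast-like cells had 26.0 CPM in sgCPT1A (322 UMIs) and 21.8 CPM in sgVC (131 UMIs), a log2 ratio of 0.25 (−0.04 to 0.56) that was not called. Pericyte or smooth muscle-like cells had 63.5 CPM in sgCPT1A (72 UMIs in 60 cells) and 16.7 CPM in sgVC (7 UMIs in 30 cells), a log2 ratio of 1.93 (0.81 to 3.29). The intervals of these levels, 49.7 to 80.03 CPM in sgCPT1A and 6.72 to 34.4 CPM in sgVC, do not overlap. Tgfb1 was low in sgVC tumour-like cells, at 14.7 CPM (14.0 to 15.4; 1778 UMIs), below every other class of at least 25 cells in that library, though the pericyte value overlaps it.

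Among the 7 classes compared, the order of the Tgfb1 levels was similar in both libraries. In sgCPT1A, T-like, monocyte/macrophage-like and NK-like cells led with overlapping intervals. Smaller classes stood as high, with 11 UMIs in 17 basophil or mast-like cells (274 CPM) and 15 UMIs in 9 plasmacytoid dendritic-like cells (161 CPM). Neutrophil-like, pericyte or smooth muscle-like and dendritic-like cells followed, with intervals that overlap each other, and fibroblast-like cells were lowest. In sgVC, NK-like, T-like and monocyte/macrophage-like cells again led with overlapping intervals, and the intervals of neutrophil-like, dendritic-like, fibroblast-like and pericyte or smooth muscle-like cells run into one another below them. The share of T-like cells with a Tgfb1 UMI was 45.2% in sgCPT1A and 20.0% in sgVC at median depths of 4914 and 2879.5 UMIs. With each cell thinned to 1000 UMIs the shares were 13.9% of 519 sgCPT1A cells and 6.28% of 780 sgVC cells, and the fibroblast-like shares, thinned the same way, were 4.17% and 3.07%. Thinning left out 34 sgCPT1A and 74 sgVC T-like cells.

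The Tgfb1 differences held within single clusters, which were compared after the class values had been seen. Cluster 1 held most sgVC neutrophil-like cells (1590 of 1797) and clusters 0 and 2 held most of those of sgCPT1A (2853 and 1777 of 5122), so the class values compare different mixtures. Within cluster 1, led by Stfa2l1, G0s2 and S100a9, Tgfb1 stood at 66.1 CPM in sgCPT1A and 30.4 CPM in sgVC, a log2 ratio of 1.12. Within cluster 0, led by Ccl3, Il1a and Il1rn, it was 59.2 CPM in sgCPT1A and 22.0 CPM in sgVC, on 4 sgVC UMIs (1.42, 0.06 to 3.31). Within cluster 2, led by Lrg1 and Cxcr2, it was 128 CPM in sgCPT1A and 68.5 CPM in sgVC, on 10 sgVC UMIs (0.90, 0.02 to 1.97). Among these clusters the value of cluster 2 was the highest in both libraries, though the order in sgVC rests on few UMIs. The 3 T-like clusters had log2 ratios of 1.12 (cluster 6, with Cd4 and Ifng), 1.49995 (cluster 10, with Cd8a and Gzmb) and 0.85 (cluster 12, with Foxp3 and Il2ra). The monocyte/macrophage-like clusters 7 (Arg1, Pf4 and C1qb) and 9 (Lyz2 and Ms4a6c) had 0.95 and 1.18.

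The levels of neutrophil markers also differed between the libraries. The 6 neutrophil markers, S100a8 and S100a9 among them, summed to 2275 CPM in sgCPT1A T-like cells and 292 CPM in sgVC T-like cells, and over the other 5 classes to between 568 and 2206 CPM in sgCPT1A and between 109 and 659 CPM in sgVC. In neutrophil-like cells themselves they summed to 53301 CPM in sgCPT1A and 80172 CPM in sgVC, the other way from Tgfb1. In fibroblast-like cells, where Tgfb1 was not called, they summed to 627 CPM in sgCPT1A and 131 CPM in sgVC. In pericyte or smooth muscle-like cells, where the Tgfb1 log2 ratio was 1.93, they summed to 568 and 411 CPM. Retnlg was at 0 in dendritic-like cells of sgCPT1A and in NK-like and pericyte or smooth muscle-like cells of both libraries, and Cxcr2 was at 0 in fibroblast-like and pericyte or smooth muscle-like cells of sgVC. Were neutrophil RNA the source of all marker UMIs in T-like cells, it would bring 3.59 CPM of Tgfb1 in sgCPT1A and 0.114 CPM in sgVC. The 10 monocyte/macrophage markers summed in T-like cells to 528 CPM in sgCPT1A and 443 CPM in sgVC, which would bring 16.7 and 5.32 CPM. That proportion would also bring 124 and 67.5 CPM of Tgfbi, where 3.60 and 0.894 CPM were measured, so for Tgfbi it is too high. The part of carried RNA in the Tgfb1 ratios was not tested.

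**Figure D2:**
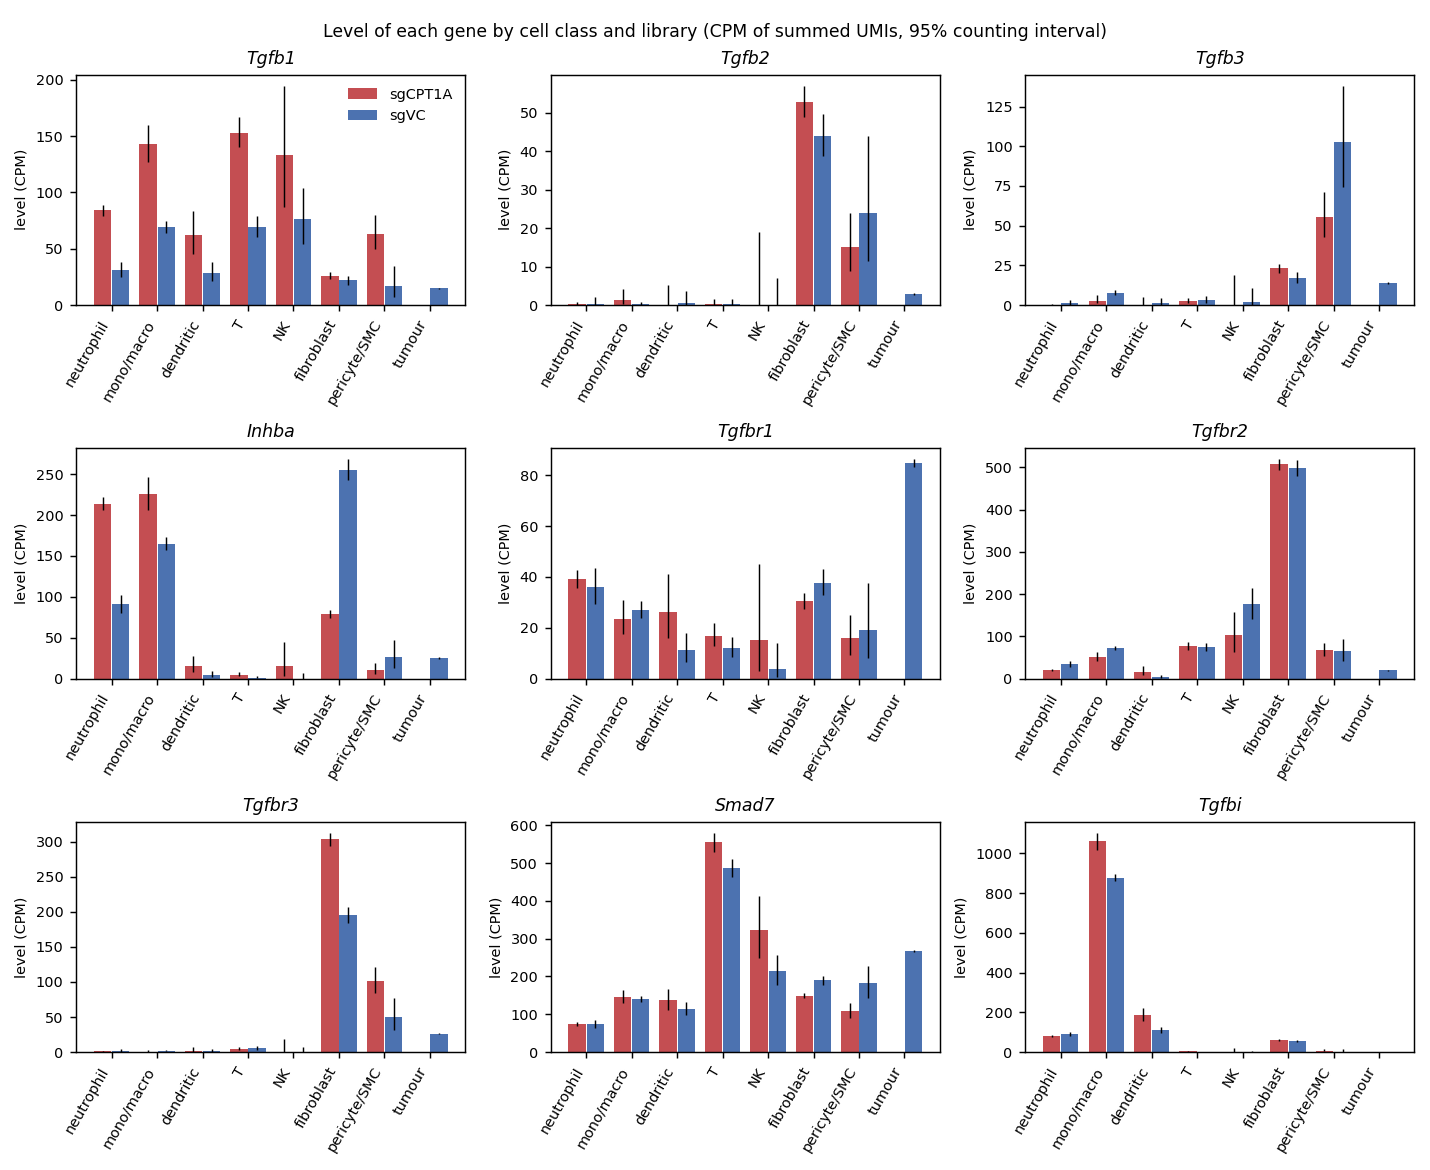
Bars give the level (CPM) of each gene by class, sgCPT1A in red and sgVC in blue, with the 95% counting interval as a line; the axis of each panel starts at 0 and differs between genes, and tumour-like cells are drawn for sgVC only. Tgfb2, Tgfbr2 and Tgfbr3 are highest in fibroblast-like cells, Smad7 in T-like cells, Tgfbi in monocyte/macrophage-like cells, and Inhba leads in monocyte/macrophage-like and neutrophil-like cells of sgCPT1A but in fibroblast-like cells of sgVC.

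Inhba (ENSMUSG00000041324, chromosome 13, 16011851 to 16031621, plus strand), the gene of the activin A subunit, went opposite ways in neutrophil-like and fibroblast-like cells. In neutrophil-like cells it stood at 214 CPM in sgCPT1A (206 to 222; 2927 UMIs) and 90.7 CPM in sgVC (79.9 to 103; 253 UMIs), a log2 ratio of 1.24 (1.05 to 1.43). In fibroblast-like cells it stood at 78.7 CPM in sgCPT1A (73.8 to 83.8; 974 UMIs) and 255 CPM in sgVC (243 to 269; 1535 UMIs), a log2 ratio of −1.70 (−1.82 to −1.58). In both classes the intervals of the libraries are far apart. With 1 library per group, the difference between these 2 ratios was not tested.

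The share of cells with an Inhba UMI went the same way. In neutrophil-like cells it was 20.9% in sgCPT1A and 7.85% in sgVC (median depths 2629 and 1460 UMIs), and after thinning to 1000 UMIs 12.7% of 4661 cells and 6.42% of 1465 cells. In fibroblast-like cells it was 29.4% in sgCPT1A and 51.0% in sgVC (median depths 24739 and 14586 UMIs), and after thinning 5.36% of 504 cells and 17.4% of 391 cells. The lower fibroblast-like share in sgCPT1A thus stood against a greater depth. T-like cells, taken as a class that should lack Inhba, had thinned shares of 0.193% in sgCPT1A and 0.128% in sgVC. No single cell held more than 9.55% of the fibroblast-like Inhba UMIs of sgCPT1A or 7.23% of those of sgVC.

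Both Inhba differences were present within single clusters, with an exception in monocyte/macrophage-like cells. The log2 ratio was 1.00 in neutrophil-like cluster 0 (243 CPM in sgCPT1A, 121 CPM in sgVC), 0.70 in cluster 1 (150.03 CPM and 92.4 CPM) and 1.53 in cluster 2 (178 CPM and 61.7 CPM, the last from 9 UMIs). In fibroblast-like cluster 8, which held 437 of 513 sgCPT1A and 385 of 400 sgVC cells, it was −1.59 (86.8 CPM in sgCPT1A, 262 CPM in sgVC). The small fibroblast-like cluster 17 (76 sgCPT1A and 15 sgVC cells), led by Eln, Col15a1 and Postn, had 6.42 CPM in sgCPT1A. In monocyte/macrophage-like cells Inhba was 226 CPM in sgCPT1A and 165 CPM in sgVC, a log2 ratio of 0.45 (0.31 to 0.60) that was not called. That value joins a cluster where Inhba was higher in sgCPT1A (cluster 7, 0.80) and a cluster where it was lower (cluster 9, −0.47).

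The remaining Inhba values rest on few UMIs. T-like cells had 4.79 CPM in sgCPT1A (16 UMIs) and 1.19 CPM in sgVC (4 UMIs), a log2 ratio of 2.01 (0.37 to 4.05) that was called. Carry-over in proportion to the monocyte/macrophage markers would bring 26.3 and 12.7 CPM to these cells, more than was measured. It would likewise bring 124 and 67.5 CPM of Tgfbi, where 3.60 and 0.894 CPM were measured. The monocyte/macrophage proportion is thus too high for both genes. Carry-over in proportion to the neutrophil markers would bring 9.12 CPM of Inhba in sgCPT1A, more than was measured. In sgVC it would bring 0.330 CPM, less than was measured. The part of carried RNA in the Inhba ratio was not tested. The ratio turned to −0.77 with doublets kept and to −1.56 with classes from each cell's own markers. Pericyte or smooth muscle-like cells had 10.6 CPM in sgCPT1A (12 UMIs) and 26.3 CPM in sgVC (11 UMIs), a log2 ratio of −1.31 (−2.62 to 0.01). The 7 fibroblast markers summed in these cells to 12861 CPM in sgCPT1A and 4701 CPM in sgVC (Lum at 0 there). Whether those marker UMIs came from fibroblasts or from the cells of this class themselves was not tested. Were all of them carried over, carry-over in proportion would bring 12.4 and 21.4 CPM of Inhba. For Tgfbr2 it would bring 79.9 and 41.7 CPM, where 67.1 and 64.5 CPM were measured. The proportion is thus too high for Tgfbr2 in sgCPT1A. The part of carried RNA in this Inhba ratio was not tested. In dendritic-like cells 1 cell held 10 of the 11 Inhba UMIs of sgCPT1A, and the gene stayed under the 20-UMI limit.

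**Figure D3:**
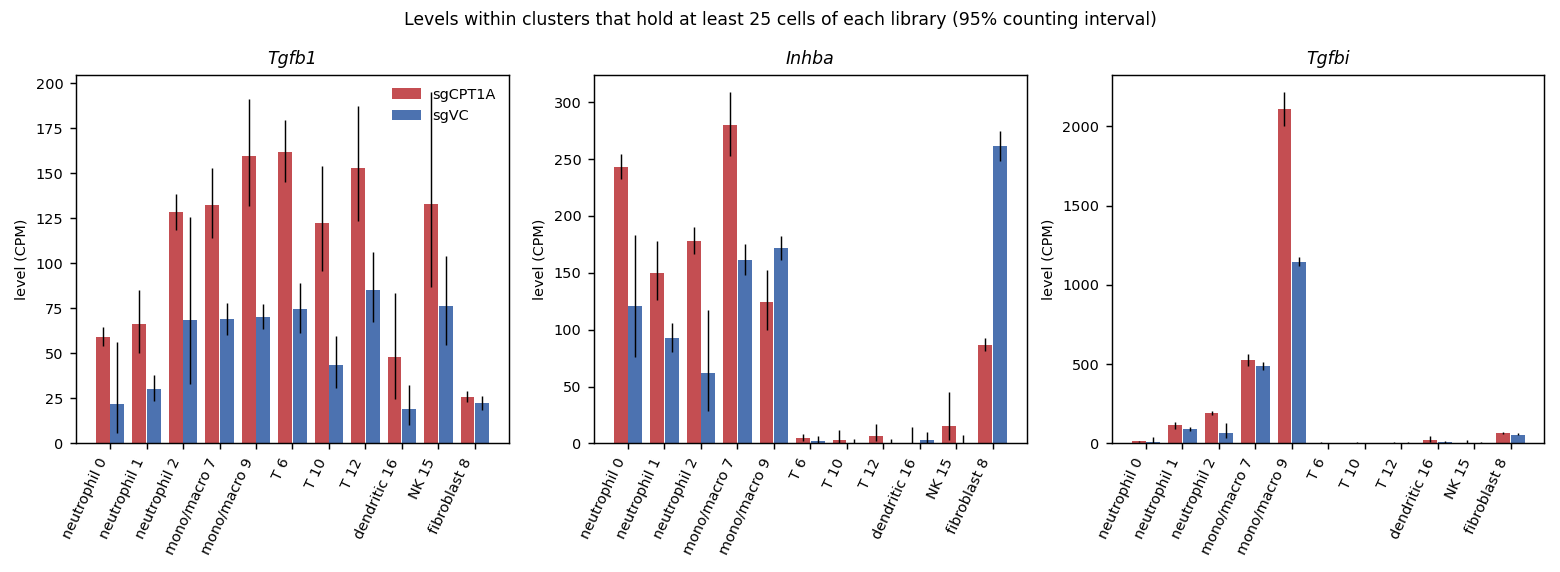
Bars give the level (CPM) of Tgfb1, Inhba and Tgfbi in each cluster that holds at least 25 cells of each library, sgCPT1A in red and sgVC in blue, with the 95% counting interval as a line. Tgfb1 is higher in sgCPT1A in every cluster shown, by little in fibroblast-like cluster 8; Inhba is higher in the 3 neutrophil-like clusters and lower in cluster 8; and Tgfbi reaches 2109 CPM in sgCPT1A and 1146 CPM in sgVC in cluster 9.

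Tgfb2 (ENSMUSG00000039239, chromosome 1, 186622792 to 186705989, minus strand) was close to restricted to fibroblast-like and pericyte or smooth muscle-like cells among the 7 classes. Fibroblast-like cells had 52.8 CPM in sgCPT1A (48.8 to 57.0) and 43.9 CPM in sgVC (38.8 to 49.6), a log2 ratio of 0.27 (0.06 to 0.48) that was not called. Pericyte or smooth muscle-like cells had 15.005 CPM in sgCPT1A (17 UMIs) and 23.9 CPM in sgVC (10 UMIs), and this was called lower (−0.67) with an interval that spans 0 (−1.88 to 0.62). It was not called at 10% mitochondrial UMIs (−0.49) or at the finer clustering (−0.57). Leukocyte classes had between 0 and 4 UMIs in either library, and tumour-like cells of sgVC had 2.88 CPM (349 UMIs).

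Tgfb3 (ENSMUSG00000021253, chromosome 12, 86056745 to 86079041, minus strand), the third TGF-beta ligand gene, was highest in pericyte or smooth muscle-like cells and in the Epcam-high cluster. Pericyte or smooth muscle-like cells had 55.6 CPM in sgCPT1A (42.7 to 71.1; 63 UMIs) and 103 CPM in sgVC (74.3 to 138; 43 UMIs), a log2 ratio of −0.88 (−1.47 to −0.29). In sgVC 1 cell held 39.5% of those UMIs, and without the cell with the most UMIs in each library the ratio was −0.55 and no longer called. The Epcam-high cells had 67.7 CPM in sgCPT1A (44 UMIs) and 84.0 CPM in sgVC (15 UMIs), with overlapping intervals. In fibroblast-like cells the order of the libraries was the other way, at 23.0 CPM in sgCPT1A and 17.3 CPM in sgVC (0.41, 0.08 to 0.75), below the threshold. Monocyte/macrophage-like cells had 2.77 CPM in sgCPT1A (6 UMIs) and 7.79 CPM in sgVC (77 UMIs), a called log2 ratio of −1.49 (−2.98 to −0.30) at a low level. Within cluster 7 it was −1.83, on 6 and 51 UMIs.

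Among the receptor genes, Tgfbr2 (ENSMUSG00000032440, chromosome 9, 116084293 to 116175360, minus strand), which encodes the ligand-binding kinase receptor, stood in fibroblast-like cells at 507 CPM in sgCPT1A (495 to 519.98; 6281 UMIs) and 498 CPM in sgVC (481 to 517; 2995 UMIs). The log2 ratio of 0.03 has an interval of −0.04 to 0.09, and the ratio was between −0.08 and 0.59 under the other settings. In T-like cells the class values were also close, at 76.1 CPM in sgCPT1A and 75.4 CPM in sgVC (0.01, −0.24 to 0.27), but the clusters went opposite ways. The ratio was 0.44 (0.07 to 0.82) in cluster 6, −0.28 in cluster 10 and −0.95 (−1.84 to −0.13) in cluster 12. It was called lower in NK-like cells, at 102 CPM in sgCPT1A (20 UMIs) and 176 CPM in sgVC (92 UMIs), a log2 ratio of −0.78 (−1.56 to −0.07) that was −0.54 and not called without mixed cells. It was also called lower in neutrophil-like cells, at 20.2 CPM in sgCPT1A and 34.4 CPM in sgVC (−0.77, −1.11 to −0.42). Within clusters the neutrophil-like ratio was −0.66 in cluster 2 (on 6 sgVC UMIs), −0.32 and not past 1.5-fold in cluster 1, and 0.53 in cluster 0 (on 2 sgVC UMIs). It was also not called with classes from each cell's own markers (−0.37), under scaling by the median ratio (−0.47) or at equal weight per cell (−0.52). Monocyte/macrophage-like cells had 51.8 CPM in sgCPT1A and 72.5 CPM in sgVC (−0.49, −0.79 to −0.20), not called, and −0.94 within cluster 7.

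Tgfbr1 (ENSMUSG00000007613, chromosome 4, 47353222 to 47414931, plus strand), which encodes the signalling kinase receptor, stood in tumour-like cells at 105 CPM in the 8 cells of sgCPT1A (13 UMIs, 7 of them in 1 cell) and 84.7 CPM in sgVC (83.1 to 86.4; 10253 UMIs), where it was the highest level of the classes with 25 or more cells. The few plasmacytoid dendritic-like cells stood higher, at 258 CPM in sgCPT1A (24 UMIs in 9 cells) and 159.6 CPM in sgVC (9 UMIs in 11 cells). Of the 7 classes compared, fibroblast-like cells (30.4 CPM in sgCPT1A, 37.8 CPM in sgVC) and neutrophil-like cells (39.1 CPM in sgCPT1A, 35.9 CPM in sgVC) had the highest levels. Neither was called, with log2 ratios of −0.31 (−0.56 to −0.07) and 0.12 (−0.19 to 0.45). With classes from each cell's own markers these were −1.095 and −0.52. The only called difference was in dendritic-like cells, at 26.3 CPM in sgCPT1A (19 UMIs) and 11.1 CPM in sgVC (17 UMIs), a log2 ratio of 1.24 (0.22 to 2.28).

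Tgfbr3 (ENSMUSG00000029287, chromosome 5, 107106570 to 107289629, minus strand), which encodes betaglycan, was the receptor gene with a called difference in fibroblast-like cells. It stood there at 303 CPM in sgCPT1A (293 to 313; 3752 UMIs) and 195 CPM in sgVC (184 to 206; 1171 UMIs), a log2 ratio of 0.64 (0.54 to 0.73), with 0.67 within cluster 8. After thinning, 26.8% of sgCPT1A and 20.5% of sgVC fibroblast-like cells had a UMI, against 0.385% and 0.641% of T-like cells. Pericyte or smooth muscle-like cells had 102 CPM in sgCPT1A (115 UMIs) and 50.1 CPM in sgVC (21 UMIs), a log2 ratio of 1.02 (0.34 to 1.76) that was 0.53 and not called at the finer clustering. Were all fibroblast marker UMIs of the pericyte class carried over, they would bring 47.7 CPM of Tgfbr3 in sgCPT1A and 16.3 CPM in sgVC. Neither the source of those UMIs nor their part in that ratio was tested. The 5 leukocyte classes compared had at most 5.37 CPM.

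The sgVC tumour-like cells were themselves uneven for the receptors. Tgfbr1 stood at 63.1 CPM in cluster 3, led by genes of dividing cells such as Top2a, at 83.8 CPM in cluster 4, with Tslp and Krt8, and at 137 CPM in cluster 5, led by Ndrg1 and Car9, which are known as hypoxia-induced genes. Tgfbr3 stood in the same order at 14.9, 24.5 and 55.0 CPM, and Tgfb3 at 10.1, 14.5 and 21.2 CPM. For all 3 genes the counting intervals of the clusters do not overlap. After thinning, 6.71%, 8.00% and 13.9% of cells had a Tgfbr1 UMI in clusters 3, 4 and 5. Median depth ran the other way over these clusters, at 34376.5, 24612 and 16414 UMIs, and its part in the order of the summed levels was not tested. Smad7 did not follow that order, at 249, 298 and 263 CPM.

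Smad7 (ENSMUSG00000025880, chromosome 18, 75367529 to 75395935, plus strand), the inhibitor gene that the pathway itself induces, was highest in T-like cells among classes of 25 or more cells. It stood there at 555 CPM in sgCPT1A (529.9 to 581; 1852 UMIs) and 486 CPM in sgVC (463 to 510.5; 1631 UMIs), a log2 ratio of 0.19 (0.09 to 0.29) that was not called. Within the T-like class the level was lowest in cluster 12, with Foxp3, in both libraries (350.02 CPM in sgCPT1A, 306 CPM in sgVC), and ratios within the 3 clusters ran from −0.07 to 0.19. NK-like cells came second among the 5 leukocyte classes compared, at 323 CPM in sgCPT1A (63 UMIs) and 214 CPM in sgVC (112 UMIs). Their log2 ratio of 0.59 (0.12 to 1.05) is at the threshold, was not called under 7 of 11 other settings and turned to −0.13 when cells were weighted equally. Pericyte or smooth muscle-like cells were lower, at 109 CPM in sgCPT1A (124 UMIs) and 181 CPM in sgVC (76 UMIs), a log2 ratio of −0.73 (−1.15 to −0.30). The 8 tumour markers summed in this class to 12.4 CPM in sgCPT1A (4 at 0) and 635 CPM in sgVC (Epcam at 0), and carry-over in proportion would bring 43.6 CPM of Smad7 to the sgVC cells. Its part in this ratio was not tested. Fibroblast-like cells were in the same direction but not called, at 149 CPM in sgCPT1A and 189.5 CPM in sgVC (−0.35, −0.46 to −0.24). Neutrophil-like cells (73.9 CPM in sgCPT1A, 74.6 CPM in sgVC) and monocyte/macrophage-like cells (146 CPM in sgCPT1A, 140.2 CPM in sgVC) had close class values that join unlike clusters. The neutrophil-like ratio was −0.49 in cluster 0, 0.38 in cluster 1 and −1.23 (−1.86 to −0.54) in cluster 2, and −0.69 with classes from each cell's own markers. The monocyte/macrophage-like ratio was −0.30 in cluster 7 and 0.47 in cluster 9. Tumour-like cells of sgVC had 268 CPM (32406 UMIs), and 94.1% of them had a UMI.

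Tgfbi (ENSMUSG00000035493, chromosome 13, 56609523 to 56639562, plus strand), an extracellular matrix gene named for its induction by TGF-beta, was a gene of monocyte/macrophage-like cells in both libraries. It stood there at 1059.9 CPM in sgCPT1A (2292 UMIs) and 877 CPM in sgVC (8677 UMIs), a log2 ratio of 0.27 (0.21 to 0.34) that was not called. The clusters behind that value differed. In cluster 9, with 92 sgCPT1A and 720 sgVC cells, Tgfbi stood at 2109 CPM in sgCPT1A and 1146 CPM in sgVC, a log2 ratio of 0.88 (0.80 to 0.96). In cluster 7, with 209 and 656 cells, it stood at 525 CPM in sgCPT1A and 487 CPM in sgVC, 0.11 (−0.02 to 0.24). Cluster 9, which had Tgfbi among its leading genes, had the higher level in both libraries but made up less of the class in sgCPT1A.

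Neutrophil-like cells had 82.6 CPM of Tgfbi in sgCPT1A and 91.1 CPM in sgVC (−0.14, −0.34 to 0.06), and here too the clusters were unlike. In sgCPT1A, Tgfbi stood at 13.4 CPM in cluster 0, 113 CPM in cluster 1 and 190.02 CPM in cluster 2, and in sgVC at 11.02, 90.3 and 68.5 CPM, the first and last from 2 and 10 UMIs. Cluster 0 was thus low in both libraries. The ratio within cluster 2 was 1.47 (0.59 to 2.54). Carry-over in proportion to the monocyte/macrophage markers would bring 30.4 CPM to neutrophil-like cells of sgCPT1A and 17.4 CPM to those of sgVC. Dendritic-like cells had 188 CPM in sgCPT1A (136 UMIs) and 111 CPM in sgVC (169 UMIs), a called log2 ratio of 0.77 (0.43 to 1.10). The monocyte/macrophage markers summed there to 354 CPM in sgCPT1A (8 of 10 with a UMI) and 147 CPM in sgVC (9 of 10), and carry-over in proportion would bring 83.01 CPM and 22.4 CPM of Tgfbi. Its part in this ratio was not tested. That call was lost under 4 settings and turned to −0.13 without mixed cells and to −0.48 at a coarser clustering. Fibroblast-like cells were close, at 61.2 CPM in sgCPT1A and 55.1 CPM in sgVC (0.15, −0.04 to 0.34). T-like cells had 12 UMIs in sgCPT1A and 3 in sgVC, and NK-like cells had 0 in both libraries, which at 3 counts allows up to 15.4 CPM in sgCPT1A and 5.73 CPM in sgVC.

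The classes that supplied the UMIs of most members differed between the libraries. Over a whole library Inhba stood at 128 CPM in sgCPT1A and 44.4 CPM in sgVC. Neutrophil-like cells held 65.8% of the Inhba UMIs of sgCPT1A and 3.88% of those of sgVC, while tumour-like cells held 0.180% and 47.1%. Of the Tgfb1 UMIs, neutrophil-like cells held 45.9% in sgCPT1A and 2.85% in sgVC, and tumour-like cells held 0.0399% and 58.3%. For both ligand genes the leading source in sgCPT1A was thus the neutrophil-like class and in sgVC the tumour-like class, in which the level in CPM is low. Fibroblast-like cells held 95.5% of the Tgfbr3 UMIs of sgCPT1A and 26.5% of those of sgVC, and 88.6% and 45.1% of the Tgfbr2 UMIs. Monocyte/macrophage-like cells held 52.6% of the Tgfbi UMIs of sgCPT1A and 89.2% of those of sgVC. These shares follow the number and depth of the cells captured, and with 1 library per group they cannot be told apart from how each tumour was sampled.

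**Figure D4:**
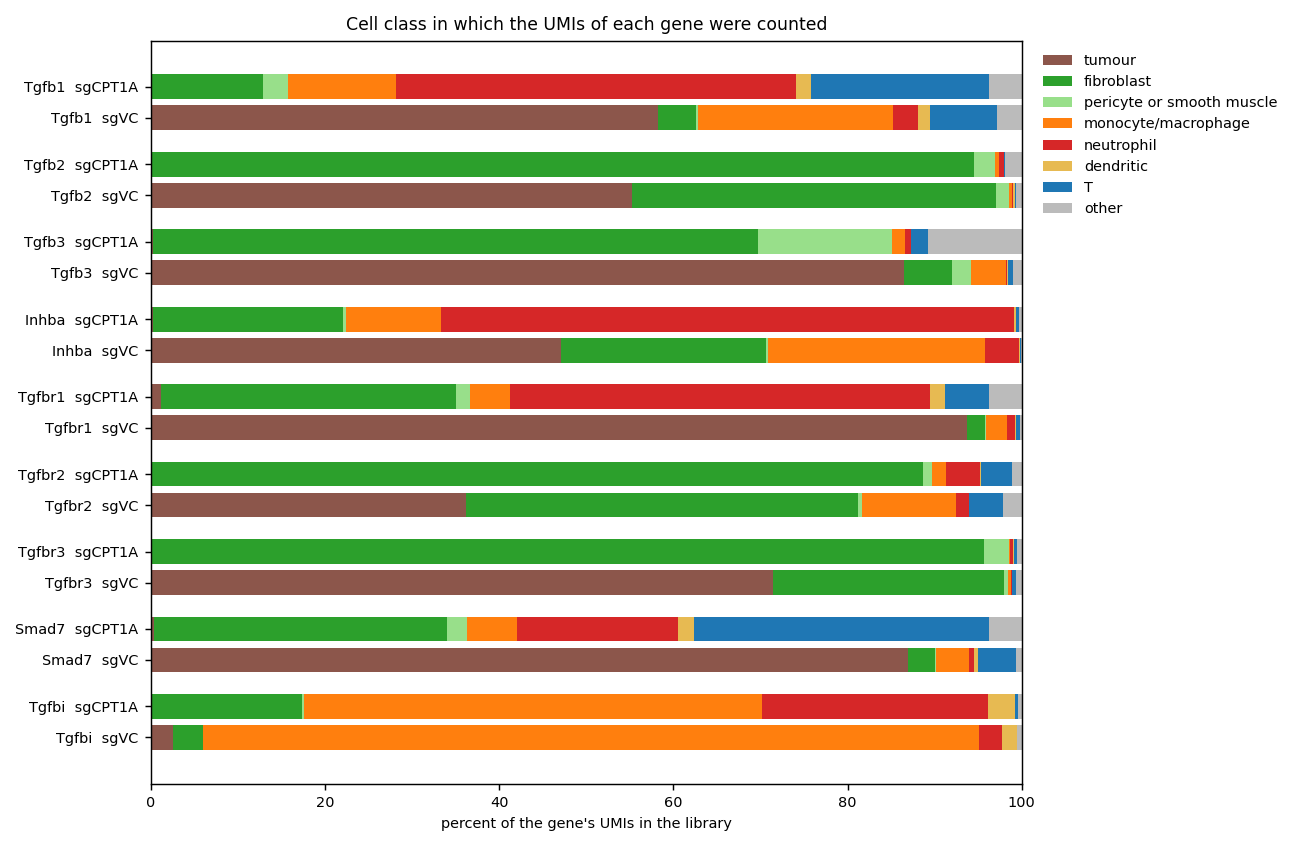
Each bar splits the UMIs of 1 gene in 1 library by the class of the cell they were counted in, in percent, with sgCPT1A above sgVC; "other" joins the smaller classes. The tumour-like class is the leading source of 7 of the 9 genes in sgVC and of none in sgCPT1A, where fibroblast-like or neutrophil-like cells lead 7 genes and T-like cells lead Smad7, and Tgfbi is led by monocyte/macrophage-like cells in both.

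A wider list of 43 genes of the pathway, chosen with earlier results of these data known, was read in the same classes. All these classes but the NK-like class join clusters that the libraries held in unlike shares. The part of these shares in the ratios of the list was not tested. In fibroblast-like cells 40 of the 43 were measured, 5 higher and 8 lower, with a median log2 ratio of −0.04, beside −0.02 over all genes. Of 9 measured target genes 1 was higher and 5 were lower, with a median of −0.59. Over all genes of the class 16% were called higher and 13.6% lower. Timp1, a metalloproteinase inhibitor gene, stood at 1804 CPM in sgCPT1A and 5793 CPM in sgVC (−1.68, −1.71 to −1.66). Tagln, a smooth muscle actin-binding protein gene, stood at 72.04 CPM in sgCPT1A and 161 CPM in sgVC (−1.16). Cthrc1, a matrix gene of activated fibroblasts, stood at 404 CPM in sgCPT1A and 618 CPM in sgVC (−0.61). Cdkn2b was also lower (−0.59). The measured target genes did not all go this way: Cdkn1a, a cell cycle inhibitor gene, was higher at 145 CPM in sgCPT1A and 94.7 CPM in sgVC (0.62), and Ccn2, Fn1 and Ccn1 were within 1.5-fold. In fibroblast-like cells the 10 pericyte markers summed to 101 CPM in sgCPT1A (all with a UMI) and 265 CPM in sgVC (Higd1b at 0), and the 8 tumour markers, all with a UMI, to 21.6 CPM and 216 CPM. Their part in these ratios was not tested. Of 9 measured genes of latency, storage and activation 3 were higher and 0 lower: the latent TGF-beta binding protein genes Ltbp1 (51.0 CPM in sgCPT1A, 33.8 CPM in sgVC), Ltbp3 (79.1 CPM in sgCPT1A, 47.3 CPM in sgVC) and Ltbp4 (14.4 CPM in sgCPT1A, 6.32 CPM in sgVC). These 3 genes and Cdkn2b were named after their values were seen. Inhbb, the other activin subunit gene, was lower, at 76.0 CPM in sgCPT1A and 118 CPM in sgVC (−0.64).

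In pericyte or smooth muscle-like cells 31 of the wider list were measured, 5 higher and 8 lower, and 3 of 7 target genes were lower, beside 24% of all genes higher and 16.2% lower. These ratios too compare clusters 14a and 14b in unlike shares, whose part was not tested. Ccn2, the connective tissue growth factor gene, stood at 187 CPM in sgCPT1A and 621 CPM in sgVC (−1.73), and Tagln at 1465 CPM in sgCPT1A and 3195 CPM in sgVC (−1.12). Thbs1, whose product thrombospondin 1 can release active TGF-beta, stood at 289.5 CPM in sgCPT1A and 666 CPM in sgVC (−1.20). Inhbb (0.87) and the SMAD corepressor gene Ski (0.67) were higher. The marker load of this class differed too: the fibroblast markers gave 12861 CPM in sgCPT1A and 4701 CPM in sgVC, the 8 tumour markers 12.4 and 635 CPM, and the pericyte markers 12525 and 14927 CPM. Their part in these ratios was not tested.

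Thbs1 went the other way in myeloid cells. In neutrophil-like cells it stood at 124 CPM in sgCPT1A (1694 UMIs) and 9.68 CPM in sgVC (27 UMIs), a log2 ratio of 3.67 (3.13 to 4.28), and in monocyte/macrophage-like cells at 122 CPM in sgCPT1A and 32.4 CPM in sgVC (1.92, 1.67 to 2.16). In fibroblast-like cells it was within 1.5-fold (0.20). In neutrophil-like cells 27 of the list were measured, 6 higher and 7 lower, beside 17.5% and 35.9% of all genes. All neutrophil-like ratios of the list compare clusters 0, 1 and 2 in unlike shares, whose part was not tested. Gdf15, a stress-induced family member gene, had 309 UMIs in sgCPT1A and 1 in sgVC (5.97, 3.49 to 11.28), and Smad3, a signal carrier gene, stood at 38.2 CPM in sgCPT1A and 16.5 CPM in sgVC (1.21). Nrros, whose product holds latent TGF-beta on myeloid cells, was lower at 20.4 CPM in sgCPT1A and 48.4 CPM in sgVC (−1.24), as were Fn1 (−0.97) and the activin receptor gene Acvr1b (−1.37). Monocyte/macrophage-like cells had 10 higher and 3 lower of 30, beside 15.4% and 25.5% of all genes, with higher genes including Acvr1b (1.28), the receptor gene Acvrl1 (0.93) and the integrin gene Itgav (0.61).

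Furin, the protease gene whose product cuts the TGF-beta precursor, was called higher in 5 classes. It stood at 256 CPM in sgCPT1A and 157 CPM in sgVC in T-like cells (0.71), at 171 CPM in sgCPT1A and 101 CPM in sgVC in monocyte/macrophage-like cells (0.76), and was also higher in NK-like (0.98), dendritic-like (1.61) and pericyte or smooth muscle-like cells (0.67). In neutrophil-like (0.35) and fibroblast-like cells (−0.18) it was within 1.5-fold. T-like cells had 3 higher and 6 lower of 25 measured genes, beside 13.7% and 14% of all genes. Itgav (−0.66), Itgb8 (−1.33), an integrin subunit gene of TGF-beta activation, and Fn1 (−1.31) were lower. These ratios compare unlike mixtures: cluster 12, with Foxp3, held 45 of 553 sgCPT1A and 134 of 854 sgVC T-like cells. The part of that difference was not tested. Dendritic-like cells had 7 higher and 2 lower of 19, beside 16.5% and 19.2% of all genes, with the corepressor genes Skil (290.8 CPM in sgCPT1A, 137 CPM in sgVC; 1.09) and Tgif1 (0.80) and the ubiquitin ligase gene Smurf1 (0.99) higher. NK-like cells had 3 higher and 2 lower of 9, beside 29.4% and 17.2% of all genes, with Skil (1.007) and Tgif1 (0.71) higher and Itgav (−0.85) lower.

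**Figure D5:**
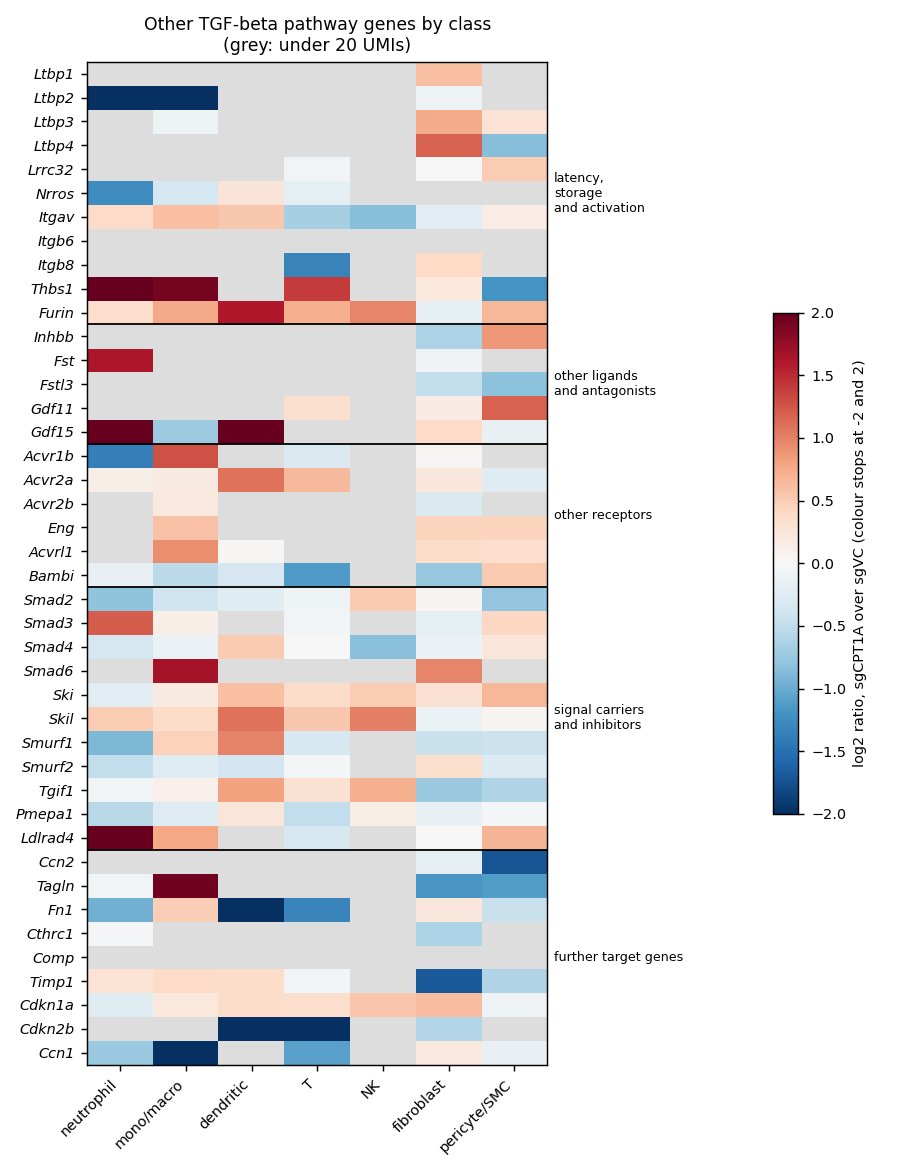
Rows are genes of the wider list by role and columns the classes; colour gives the log2 ratio of the level in sgCPT1A over that in sgVC, red for higher and blue for lower in sgCPT1A, with the scale stopped at −2 and 2 and grey for under 20 UMIs. Thbs1 is red in neutrophil-like, monocyte/macrophage-like and T-like cells and blue in pericyte or smooth muscle-like cells, and the target genes Timp1, Tagln and Cthrc1 are blue in fibroblast-like cells.

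The genes with the most similar pattern to each member were found by Pearson's correlation over 17 class-by-library sums of at least 25 cells, among 13141 genes. Sums of 1 library share its depth and free RNA, so the values are descriptions. Tgfb2 was most like Tmem98 (r = 0.98), Inhbb (0.97) and Fkbp14 (0.97), and Tgfbr3 most like Zfp9 (0.97), Angptl2 (0.96) and Pxdn (0.96). Tgfbi was most like Sirpa (0.96), Lmo2 (0.93) and Tbc1d9 (0.91), and Tgfb3 most like Atp9a (0.95), Igip (0.95) and Ctdspl (0.94). Inhba was most like Ctsb (0.90), Mapk7 (0.89) and C3 (0.87), and Smad7 most like Tasor2 (0.90), Pms2 (0.87) and Rbm33 (0.87). Correlations were lower for Tgfb1 (Ly6c2 at 0.86, Tsc22d4 at 0.86, Brd2 at 0.84), Tgfbr1 (Tjap1 at 0.85, Mapk7 at 0.79, Ifi202b at 0.78) and Tgfbr2 (Nucb1 at 0.83, Ly6c1 at 0.83, Itm2a at 0.81).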

How the data were processed

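The deposited files hold raw UMI counts per gene and cell barcode for both libraries, made with Cell Ranger 7.1.0 per the file headers. The submitters' processing notes also name Seurat 4.1.0 and the GRCm38 build; the annotation release and cell calling settings are not given in the sources used here. Barcodes with under 200 genes or over 20% mitochondrial UMIs were left out (455 in sgCPT1A, 280 in sgVC). Scrublet, run through scanpy 1.11.5, called 291 doublets in sgVC (3.03%), which were removed. In sgCPT1A it called 1 of the cells (0.0148%), under the 0.5% minimum for a working caller, so none was removed and doublets remain there. Cells were scaled to 10000 UMIs, log-transformed and clustered on 2000 variable genes, without the 9 members and the wider list, with 30 principal components, 15 neighbours and the Leiden method (leidenalg 0.10.2) at resolution 1. A cluster was named where at least 3 markers of a type passed, and 2 mixed clusters were split again at resolution 0.5. These naming settings were set with the data in hand, and another naming could shift the values. Levels are UMIs summed per class and library, with exact Poisson intervals. Log2 ratios carry exact conditional binomial intervals and shares exact Clopper-Pearson intervals (scipy 1.17.1). The code of the ratio interval was run on simulated independent Poisson counts. That is the setting the interval assumes, so the run checks the code alone. UMIs from few cells are not independent. Of 55357 gene IDs 52081 matched the GENCODE M21 annotation, which gave the coordinates. Beyond the members, up to 6 genes of the wider list per class with at least 50 UMIs and 1.5-fold were named by level, and the 3 genes most like each member. The members and all lists were chosen with earlier results of these data known. A gene of the wider list that met this rule is counted but not reported here by name.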

Additional observations from a re-analysis of the deposited data

Results flagged for a closer look

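Inhba and Smad7 had called ratios of opposite sign in different classes, and the differences between classes were not tested. The Inhba log2 ratio of sgCPT1A over sgVC was 1.24 in neutrophil-like cells and 2.01 in T-like cells, where it rests on 16 and 4 UMIs, against −1.70 in fibroblast-like cells and −1.31 in pericyte or smooth muscle-like cells, where it rests on 12 and 11 UMIs. The Smad7 log2 ratio was 0.59 in NK-like cells and −0.73 in pericyte or smooth muscle-like cells.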

How the results depend on the processing

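No paired analysis was possible because each group had 1 library. Of 527 recomputed values of the 44 member log2 ratios, 439 stayed within the counting interval, and 40 values of 15 ratios had the other sign. Of these, 34 were of ratios that were not called. The 6 of called ratios were Tgfbr2 in neutrophil-like cells within cluster 0 (0.53), Tgfbi in dendritic-like cells without mixed cells (−0.13) and at resolution 0.5 (−0.48), Inhba in T-like cells with doublets kept (−0.77) and with classes from each cell's own markers (−1.56), and Smad7 in NK-like cells at equal weight per cell (−0.13); the cause was not tested. Of 126 shares of cells with a UMI, 107 left their interval after thinning, and of 18 leading classes 3 lost the lead at equal weight per cell. The number of higher pairs, 13 as reported, was between 9 and 19 over the settings run; how many pairs were shared was not counted. The 8 lower pairs became 15 with doublets kept, 4 without mixed cells, 14 with own markers and 3 at 2-fold. Called members per class changed with doublets kept to 6 in monocyte/macrophage-like, 5 in dendritic-like and 5 in T-like cells (2, 3 and 2 as reported). Own markers gave 5 in neutrophil-like, 1 in dendritic-like and 7 in fibroblast-like cells (3, 3 and 2 as reported). The fibroblast-like calls added by own markers were Tgfb1 (0.61), Tgfb2 (0.81), Tgfbr1 (−1.095), Tgfbr2 (0.59) and Smad7 (−0.60). Leaving out mixed cells gave 4 in monocyte/macrophage-like, 1 in T-like and 1 in NK-like cells (2, 2 and 3 as reported). A minimum of 5 UMIs gave 4 in monocyte/macrophage-like and 5 in dendritic-like cells. The 2-fold threshold gave 0 in NK-like, 1 in fibroblast-like and 3 in pericyte or smooth muscle-like cells, and T-like cells had 1 at 10% mitochondrial UMIs and 1 at resolution 0.5. Leaving out mixed cells kept 3 sgCPT1A and 4 sgVC pericyte or smooth muscle-like cells and gave no value there. The Tgfb1 ratio ran from 1.39 to 1.73 in neutrophil-like and from 1.08 to 1.54 in T-like cells, and the Inhba ratio from −2.004 to −1.11 in fibroblast-like cells. The comparison within clusters was added after seeing the data.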
